A study of Drosophila melanogaster with 4 samples.

Results

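Strong but compact sites of TATA-binding protein (TBP) occupancy were examined in Drosophila melanogaster embryos. They were selected on the deposited score and width, from 1 list of TBP peaks, as those on chromosome arms 2L, 2R, 3L, 3R, 4 and X that scored 50 or more over at most 1000 bp. These 417 sharp strong peaks were 5.71% of 7303 arm peaks and 5.37% of all 7769 listed peaks. They were compared with the 1724 arm peaks that scored 50 or more and were wider than 1000 bp, called wide strong peaks here. The series holds 2 libraries of DNA immunoprecipitated with a rabbit polyclonal serum against TBP and 2 libraries of input DNA. All 4 came from embryos labelled as 0 to 8 h, of unknown sex, in the strain Exd-GFP-13T. Its genotype is w; PBac{y[+]-attP-3B}VK00033, with a genomic copy of extradenticle whose stop codon was replaced by GFP. That strain and genotype label was shared by the TBP and the input libraries. The extraction text gives an 8 to 16 h collection from y; bw cn sp flies instead, which conflicts with the stage and strain labels. All 4 libraries are described with the same crosslinking, in 1.8% formaldehyde for 15 min.

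TBP is the saddle-shaped DNA-binding core of the general factor TFIID, which brings RNA polymerase II to promoters, and it binds the TATA box through the minor groove. It also belongs to the initiation factor of RNA polymerase I, while in flies the related factor TRF1 does much of the work at RNA polymerase III genes. Fly promoters range from focused ones, which start transcription within a few bases and often carry a TATA box, to dispersed ones with many start positions. The width of a called peak is not a measure of that promoter shape.

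One list stands for the whole series, so a peak has 1 score, 1 width and no replicate error, and read depths are unknown. The sources used here do not give the scale of the score, which serves only to rank peaks within this list. Intervals below are exact Clopper-Pearson 95% intervals of shares, or 95% order-statistic intervals of medians, and cover counting error only. Peaks of 1 list are not replicates and lie in clusters, so differences between classes are given as values side by side, without a p-value. Positions are on FlyBase release 5, and no gene was assigned because the gene table used here is of release 6.

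The sharp strong peaks were compact for their score rather than narrow in absolute terms. Their scores ran from 50.16 to 273.02 with a median of 63.77, against a median of 77.84 in wide strong peaks and 28.43 over all arm peaks. Their widths ran from 357 to 999 bp with a median of 807 bp, against medians of 1663.5 bp in wide strong peaks and 725 bp over all arm peaks. The median member was thus wider than the median arm peak, and 255 of the 417 measured 750 bp or more. Another 138 measured from 500 to under 750 bp, and 24 were under 500 bp. Score and width chose the members, so these values describe the choice.

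**Figure D1:**
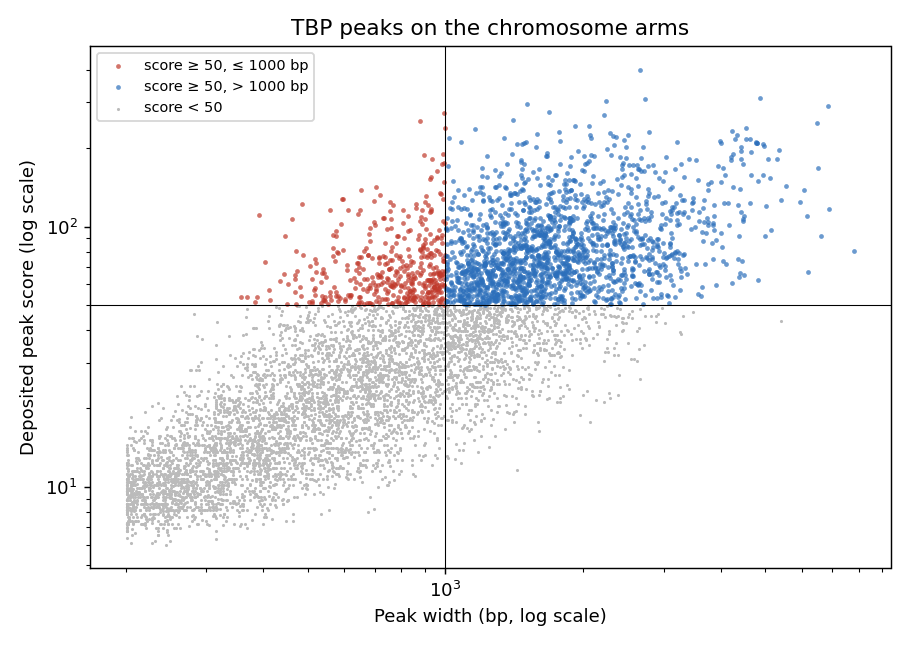
Deposited score against width (bp, both axes logarithmic) for the 7303 arm peaks, 1 point per peak, with lines at 50 (score) and 1000 bp (width). The 417 sharp strong peaks fill the upper left corner, at scores of 50.16 to 273.02, and run without a gap into the 1724 wide strong peaks on their right and the weaker peaks below.

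Both limits cut through a continuous cloud of peaks. The lowest-scoring member, on 2L at 6062325 to 6063315, scored 50.16, and the highest-scoring compact peak left out, on 2L at 19583639 to 19584575, scored 49.85. The widest members, on 2L at 21540855 to 21541853 and on X at 13675878 to 13676876, measured 999 bp. The narrowest wide strong peaks measured 1001 bp, among them those on 3L at 8417912 to 8418912 and 14975666 to 14976666. Of the 417 members, 98 scored under 55 and 123 were wider than 900 bp. The compact share of strong peaks was 32.7% at scores of 50 to under 60, 23.3% at 60 to under 70, 17.7% at 70 to under 80, 12.1% at 80 to under 100 and 10.3% at 100 or more. The median width of the members was 789.5 bp at scores of 50 to under 60 and 878 bp at 100 or more.

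The 10 highest-scoring members came from each arm except chromosome 4, and all were close to the width limit, at 880 to 999 bp. The strongest was on 2R at 16988912 to 16989903 and scored 273.02 over 992 bp. Its nearest peak was a wide strong one 3651 bp away with a score of 62.15, and on the other side no peak followed for 25092 bp. Also on 2R, the peak at 15993684 to 15994563 scored 255.1 over 880 bp. It stood 3296 bp from a wide strong peak scoring 202.92, while its other side was empty for 76453 bp. Both of these peaks were therefore the higher of a pair, open on one side.

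The third-highest score, 238.88, belonged to the 2L peak at 21540855 to 21541853. It began 1349 bp after the end of a run of 23 peaks of at least 3000 bp each at 2L 21416427 to 21539505, whose scores were 167.51 to 238.1. A further 3 members followed it on the same side within 100 kb of the run, with scores of 58.35, 59.48 and 53.23. On the other side of the run, 2 members scored 56.2 and 57.13, at distances of 11996 and 10332 bp. None lay inside the run. The peak next to the run thus had a score just above the highest in it, and the other members around the run scored 53.23 to 59.48.

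Among the other members of the top 10, 3L 18432469 to 18433455 (score 190.26, 987 bp) and X 3704915 to 3705899 (173.46, 985 bp) had no peak within 5 kb. Their nearest peaks were 20032 and 23585 bp away. The 2R peak at 9821743 to 9822640 (188.11, 898 bp) had a weak peak scoring 25.26 only 90 bp away. The 3R peak at 7599053 to 7599988 (182.57, 936 bp) had 5 neighbours within 5 kb, 1 of them wide and strong. Another 3 peaks in the same group had 2 weak neighbours each. They were 3R 10729231 to 10730222 (174.97), 2L 9613245 to 9614203 (163.01) and 3L 18390960 to 18391889 (154.94). High score in a compact peak thus went with settings from empty to crowded.

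The 10 narrowest members measured 357 to 443 bp and had a median score of 55.295, and 3 of them scored above the median of all members. On 3R they were at 24171047 to 24171403 (357 bp, score 53.74), 8903953 to 8904339 (387 bp, 53.74), 2680020 to 2680433 (414 bp, 52.22) and 24497816 to 24498258 (width 443 bp, score 65.95). On 2L the peak at 3048488 to 3048871 scored 51.21 over 384 bp, that at 13215659 to 13216049 scored 110.67 over 391 bp, and that at 19812430 to 19812863 scored 61.61 over 434 bp. On 2R they were at 20972896 to 20973263 (368 bp, 53.74) and 3901730 to 3902132 (403 bp, 73.23), and on 3L at 2851742 to 2852152 (411 bp, 56.85). The 391 bp peak on 2L had the highest score of these, at 110.67. It had 3 neighbours within 5 kb, including a wide strong peak and another sharp strong peak of 483 bp that scored 54.26.

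Sharp strong peaks lay farther from other TBP peaks than wide strong ones. The median gap to the nearest arm peak, measured edge to edge, was 3651 bp for sharp strong peaks (2944 to 4164) and 2123 bp for wide strong peaks (1944 to 2316). Over all arm peaks it was 1670 bp (1585 to 1774). Gaps of 1 kb or less were found for 26.1% of sharp strong peaks (22.0% to 30.6%) and 37.5% of wide strong peaks (35.2% to 39.9%). Gaps over 20 kb were found for 11.8% of sharp strong peaks (8.82% to 15.2%) and 4.76% of wide strong peaks (3.80% to 5.87%). Of all arm peaks, 42.1% had gaps of 1 kb or less and 5.48% had gaps over 20 kb. Wide strong peaks scored higher, and when they were weighted to the score bins of the members their median gap was 2255 bp. From centre to centre, which adds a part of each peak's own width, the medians were 4589 bp for sharp strong peaks and 3596 bp for wide strong peaks.

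**Figure D2:**
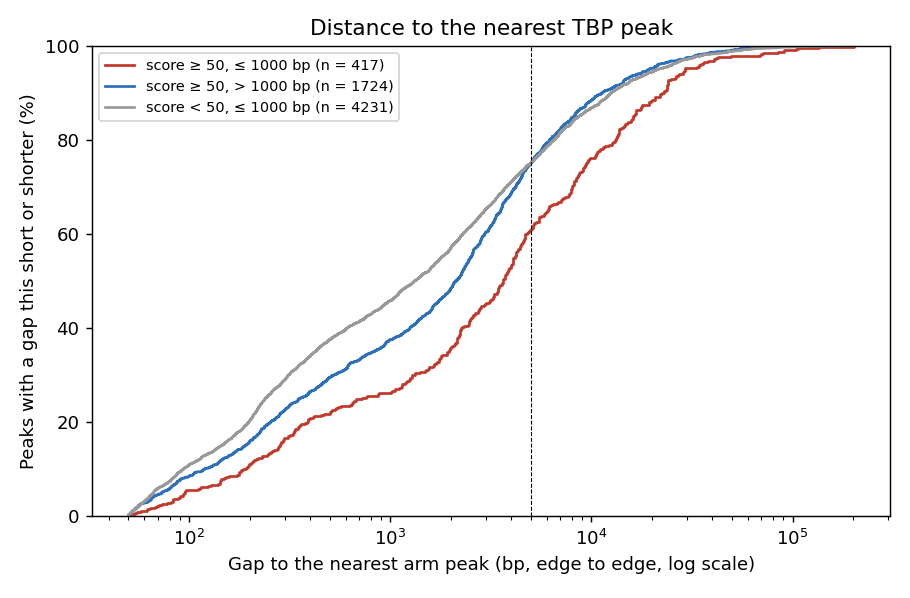
Cumulative share (%) of peaks against the gap to the nearest arm peak (bp, edge to edge, logarithmic axis), with 1 line each for sharp strong, wide strong and sharp weak peaks and a dashed line at 5 kb. At 1 kb the lines stand at 26.1% for sharp strong, 37.5% for wide strong and 45.8% for sharp weak peaks, and at 5 kb the line of sharp strong peaks stands at 61.2%, against 75.1% for each of the others.

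Fewer sharp strong peaks had company within 5 kb. At least 1 other arm peak lay within that distance of 255 of 417 sharp strong peaks (61.2%, 56.3% to 65.9%) and of 1294 of 1724 wide strong peaks (75.1%, 72.9% to 77.1%). The share was 74.6% over all arm peaks. Neighbours on both sides were found for 15.3% of sharp strong peaks (12.0% to 19.2%) and 26.2% of wide strong peaks (24.1% to 28.3%). Sharp strong peaks had 1.09 neighbours within 5 kb on average, and wide strong peaks had 1.53. At least 3 neighbours were found for 45 sharp strong peaks (10.8%, 7.98% to 14.2%) and 357 wide strong peaks (20.7%, 18.8% to 22.7%). Of all arm peaks, 29.1% had neighbours on both sides and 23.1% had at least 3 neighbours. In a wider view, the median number of other peaks with centres within 50 kb was 7 around sharp strong peaks and 9 around wide strong peaks.

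Weak and wide strong neighbours were both found beside fewer of the sharp strong peaks, but among peaks with any neighbour the shares of each kind had overlapping intervals. A peak scoring under 50 lay within 5 kb of 50.4% of sharp strong peaks (45.5% to 55.3%) and 62.6% of wide strong peaks (60.3% to 64.9%). A wide strong peak lay within 5 kb of 90 sharp strong peaks (21.6%, 17.7% to 25.8%) and of 526 wide strong peaks (30.5%, 28.3% to 32.7%). In 61 of those 90 cases a wide strong neighbour had the higher score. Wide strong peaks also had the higher median score, at 77.84 against 63.77, and no matching count was made for other peaks. A sharp strong neighbour was rare for both, with overlapping intervals, at 5.04% of sharp strong peaks (3.14% to 7.60%) and 5.63% of wide strong peaks (4.59% to 6.82%). Of all arm peaks, 62.9% had a weak neighbour, 30.5% a wide strong one and 5.94% a sharp strong one. Among peaks that had any neighbour, the share with a weak one was 82.4% for sharp strong peaks (77.1% to 86.8%) and 83.5% for wide strong peaks (81.3% to 85.4%). The share with a wide strong one was 35.3% for sharp strong peaks (29.4% to 41.5%) and 40.6% for wide strong peaks (37.96% to 43.4%), again with overlap. The single nearest peak was weak for 78.2% of sharp strong peaks (73.9% to 82.0%) and for 73.3% of wide strong peaks (71.2% to 75.4%), with overlapping intervals.

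**Figure D3:**
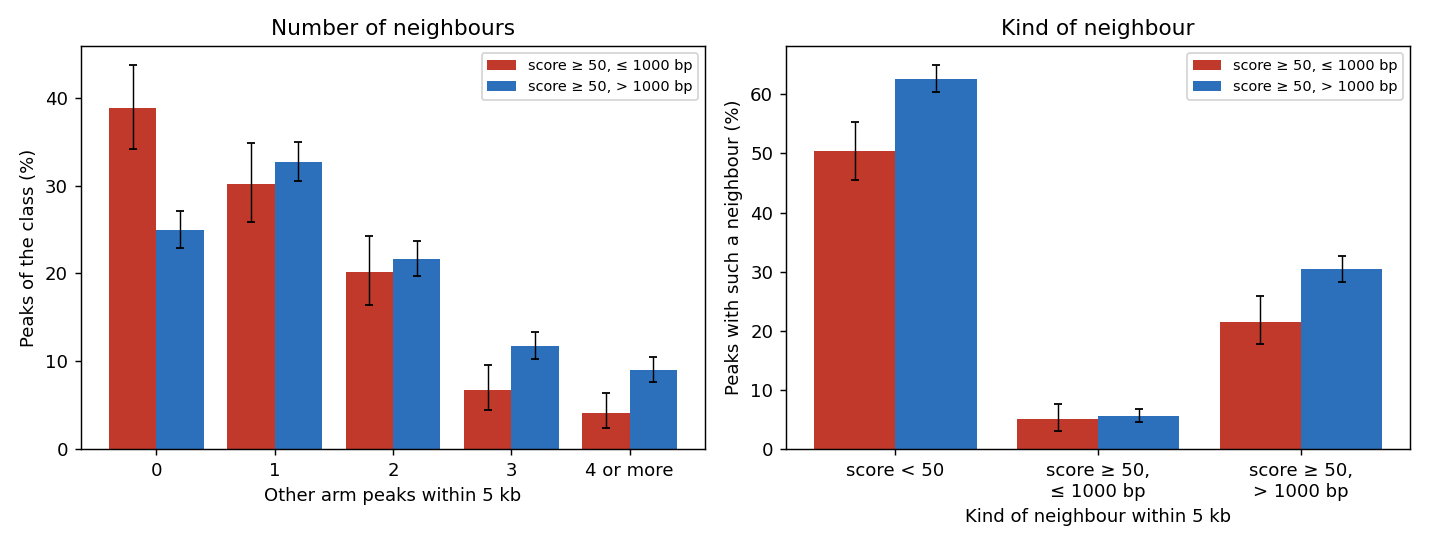
Left, share of peaks (%) by the number of other arm peaks within 5 kb; right, share of peaks (%) with a neighbour of each kind within 5 kb; sharp strong beside wide strong peaks, with exact 95% intervals as error bars. Sharp strong peaks had no neighbour in 38.8% of cases, against 24.9% of wide strong peaks, and fewer of them had weak or wide strong neighbours, while sharp strong neighbours were rare beside both.

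Most members were the highest peak of their surroundings. No peak within 5 kb scored as high as the member for 349 sharp strong peaks (83.7%, 79.8% to 87.1%), a count that includes those with no neighbour. The share was 81.8% of wide strong peaks (79.9% to 83.6%), or 77.7% once these were weighted to the score bins of the members. Over all arm peaks it was 52.1% (51.0% to 53.3%). Among peaks with a neighbour it was 73.3% of sharp strong peaks (67.5% to 78.7%) and 75.8% of wide strong peaks (73.4% to 78.1%). Selection on a score of 50 or more favours such peaks in both classes.

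Sharp strong peaks had the lower share with a neighbour on each of the 5 long arms, with intervals apart on 3L and 3R and overlapping on 2L, 2R and X. On 3R it was 61.1% of sharp strong peaks (51.4% to 70.1%) and 77.2% of wide strong peaks (73.1% to 80.9%). On 3L it was 55.1% of sharp strong peaks (43.4% to 66.4%) and 73.3% of wide strong peaks (68.2% to 77.9%). On X it was 58.8% of sharp strong peaks (46.2% to 70.6%) and 73.8% of wide strong peaks (67.3% to 79.6%). The values were closer on 2L (65.3% of sharp strong, 53.5% to 75.96%; 74.9% of wide strong, 69.9% to 79.5%) and 2R (66.3% of sharp strong, 54.8% to 76.4%; 74.7% of wide strong, 69.9% to 79.0%). On chromosome 4 the counts were 1 of 3 sharp strong and 15 of 19 wide strong peaks, too few to compare. The share with a wide strong neighbour did not keep this order on 2R, where it was 24 of 80 sharp strong and 108 of 371 wide strong peaks (29.1%). On 3R it was 19.5% of sharp strong and 37.2% of wide strong peaks.

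The classes were closest in their neighbours just above the score limit. At scores of 50 to under 60, 67.3% of 162 sharp strong peaks (59.5% to 74.4%) and 72.1% of 333 wide strong peaks (66.9% to 76.8%) had a neighbour within 5 kb. At 60 to under 70 the shares were 59.4% of sharp strong and 78.0% of wide strong peaks. At 100 or more they were 54.5% of 55 sharp strong peaks (40.6% to 68.0%) and 78.2% of 478 wide strong peaks (74.3% to 81.9%). The median gap in that top group was 3990 bp for sharp strong peaks (3283 to 10639) and 1605.5 bp for wide strong peaks (1136 to 2043).

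No step was visible at the width limit of 1000 bp. Among all peaks scoring 50 or more, the share with a neighbour was 58.0% for peaks up to 600 bp, 58.5% for those over 600 and up to 800 bp, and 63.8% for those over 800 and up to 1000 bp. It was 67.1% at over 1000 to 1200 bp, 74.2% at over 1200 to 1500 bp and 85.0% above 3000 bp, where 23 of 173 peaks belonged to the run on 2L. The median gap was 4099 bp in the narrowest group, 2854 bp at over 1000 to 1200 bp and 616 bp in the widest. Median scores also rose along these groups, from 61.08 to 110.01.

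**Figure D4:**
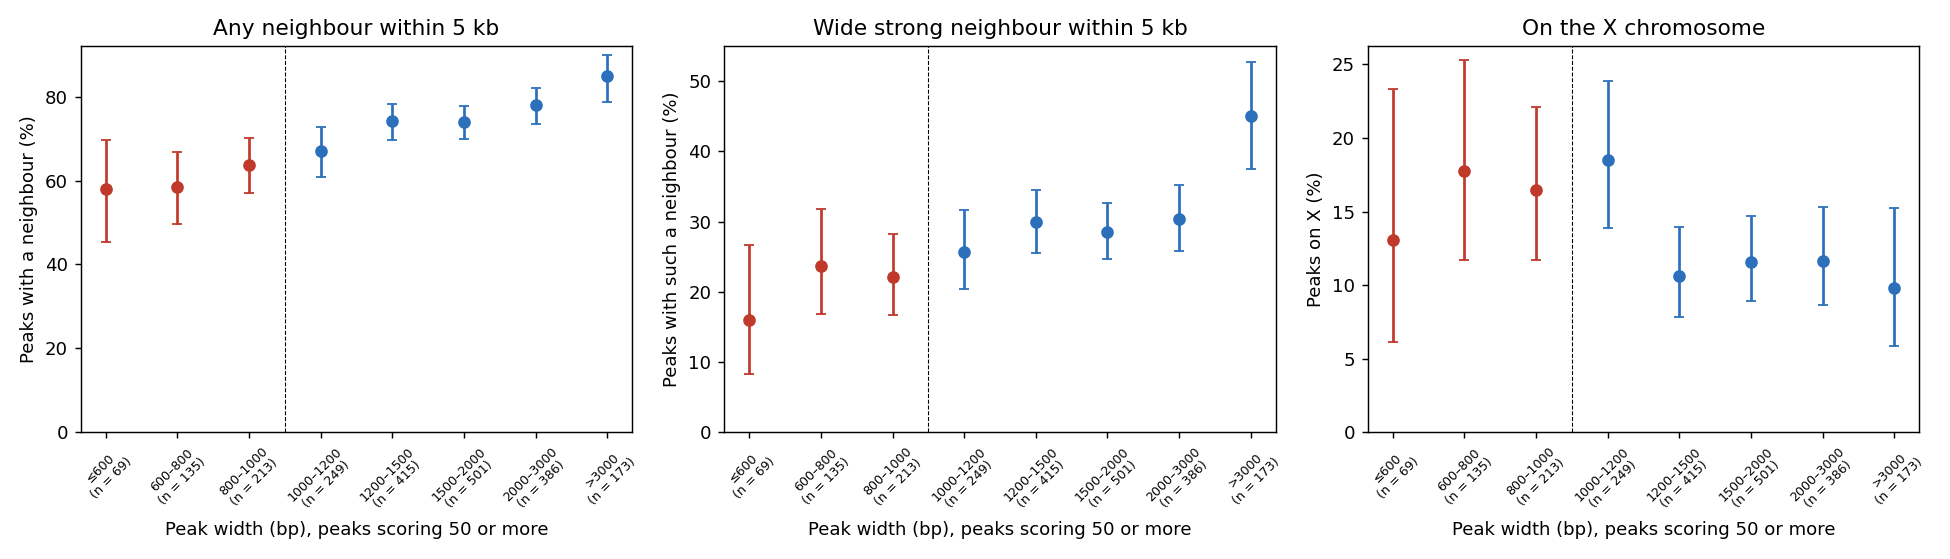
Strong arm peaks in 8 width groups (bp), with the share (%) that had any neighbour within 5 kb, the share (%) with a wide strong neighbour, and the share (%) on X; points are shares, bars are exact 95% intervals, and the dashed line marks 1000 bp. The share with a neighbour was 58.0% in the narrowest and 85.0% in the widest group with no step at the line, and the share on X was 16.4% to 18.5% at over 600 to 1200 bp, 13.0% in the narrowest group and 9.83% to 11.7% above 1200 bp.

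Among compact peaks of all scores, company was also less frequent at higher scores, though with no steady fall from 40 upward. For peaks of 1000 bp or less, a neighbour within 5 kb was found for 86.5% at scores of 6 to under 10, 77.0% at 10 to under 20, 71.5% at 20 to under 30 and 67.3% at 30 to under 40. At 40 to under 50, just below the limit, it was 59.1% of 281 peaks (53.1% to 64.9%), and at 50 to under 60 it was 67.3% of 162. Above that it was 59.1% at 60 to under 80, 54.3% at 80 to under 100 and 54.5% at 100 or more. The median width of these compact peaks rose over the same groups, from 253.5 to 878 bp. The value just below the limit lay within the interval of the members as a whole (56.3% to 65.9%).

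The arms shared the sharp strong peaks much as they shared all arm peaks, and the largest gap between the strong classes was on X. Arm 3R held 113 members (27.1%, 22.9% to 31.6%), 2R held 80 (19.2%), 3L held 78 (18.7%), 2L held 75 (18.0%) and chromosome 4 held 3 (0.719%). For wide strong peaks these shares were 26.7% on 3R, 21.5% on 2R, 19.5% on 3L, 19.0% on 2L and 1.10% on chromosome 4. Over all arm peaks the shares were 24.1% on 3R, 20.2% on 2R, 19.7% on 3L, 18.5% on 2L and 1.48% on chromosome 4. Each of these values lay within the interval of the sharp strong share. The X chromosome, which males carry once, held 68 members (16.3%, 12.9% to 20.2%) and 210 wide strong peaks (12.2%, 10.7% to 13.8%), against 16.1% of all arm peaks. The intervals of the strong classes overlapped on X. Turned round, 24.5% of strong peaks on X were sharp (19.5% to 29.95%), against 18.7% on the other arms (17.0% to 20.6%).

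The difference on X was smaller when scores were matched. Weighted to the score bins of the members, wide strong peaks had 13.3% on X. At scores of 50 to under 60, X held 19.8% of sharp strong peaks and 14.4% of wide strong peaks. At 70 to under 80 it held 17.0% of sharp strong and 13.8% of wide strong peaks, and at 80 to under 100 it held 17.4% of sharp strong and 9.55% of wide strong peaks. At 60 to under 70 the order was slightly the other way, with 14 of 101 sharp strong (13.9%) and 14.5% of wide strong peaks. The same was seen at 100 or more, with 5 of 55 sharp strong (9.09%) and 10.0% of wide strong peaks. At 70 to under 80 and 80 to under 100 only 9 and 8 sharp strong peaks were on X. With counts this small, the order within single score groups is uncertain. By width, X held 13.0% of strong peaks up to 600 bp (9 of 69, 6.14% to 23.3%), 17.8% at over 600 to 800 bp, 16.4% at over 800 to 1000 bp, 18.5% at over 1000 to 1200 bp and 10.6% at over 1200 to 1500 bp. The values on either side of 1000 bp were close, and lower ones stood at both ends, in the narrowest group and above 1200 bp.

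In density the members ran at 3.47 per Mb of arm, taken between its outermost listed peaks, and wide strong peaks at 14.4 per Mb. Members were densest on 3R, at 4.05 per Mb, and 2R, at 3.79 per Mb. On 2L, 3L and X there were 3.27, 3.20 and 3.04 per Mb. Wide strong peaks had 16.5 per Mb on 3R, 17.6 on 2R, 14.3 on 2L, 13.8 on 3L and 9.38 on X. The median score of the members was 66.51 on 3L, 65.41 on 2R, 63.77 on 2L and 61.08 on both 3R and X.

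Along the arms, sharp strong peaks were spread from end to end. Each arm was split into 5 equal segments from the telomere side, in which they had shares of 16.8%, 21.1%, 18.0%, 21.1% and 23.0%. Wide strong peaks had 20.8%, 21.5%, 18.2%, 19.3% and 20.2%. The classes differed most in the segment nearest the telomere, with 70 of 417 sharp strong peaks (13.3% to 20.7%), 359 of 1724 wide strong peaks (18.9% to 22.8%) and 20.6% of all arm peaks (19.7% to 21.5%). In the segment nearest the centromere, sharp strong peaks had 96 of 417 (19.1% to 27.4%), wide strong peaks 348 of 1724 (18.3% to 22.2%) and all arm peaks 18.5% (17.6% to 19.4%). In both segments the intervals of the 3 classes overlapped. Arm 3R contributed 32 of those 96 members and 114 of those 348 wide strong peaks.

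**Figure D5:**
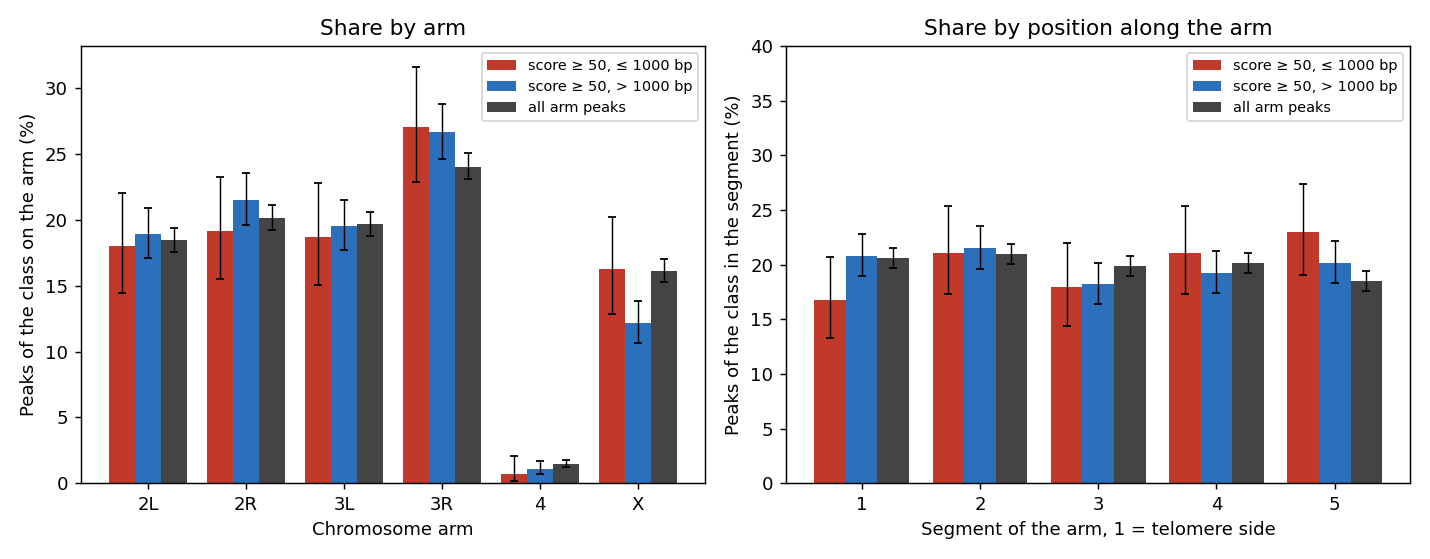
Share of each class (%) by chromosome arm (left) and by segment of the arm from the telomere side (right, 5 equal segments), for sharp strong, wide strong and all arm peaks, with exact 95% intervals as error bars. Sharp strong peaks had 16.3% on X, against 12.2% of wide strong peaks, and 16.8% in the segment nearest the telomere, against 20.8%, with overlapping intervals in both cases.

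The most isolated members stood alone in stretches of over 100 kb. The 2L peak at 16049634 to 16050310 (score 57.89, 677 bp) was 278165 bp from the peak before it and 201115 bp from the peak after it. Next came 3L 4975813 to 4976691 (81.37, 879 bp), with 134871 bp to its nearest peak. The 2L peak at 17260406 to 17261165 (106.76, 760 bp) and the 3R peak at 18724606 to 18725349 (97.84, 744 bp) followed, with 106918 and 104181 bp. Nearest gaps of 90479 to 49523 bp were found at 3R 7953647 to 7954540 (score 50.2), X 9672488 to 9673147 (57.37), 3L 24457200 to 24457789 (102.43), X 14547655 to 14548197 (66.51), 2R 4214466 to 4215180 (76.11) and 2L 4282584 to 4283521 (62.69). None of these 10 had a peak centre within 50 kb, and their scores ran from 50.2 to 106.76. Gaps over 50 kb were found for 9 of 417 sharp strong peaks (2.16%, 0.992% to 4.06%) and 16 of 1724 wide strong peaks (0.928%, 0.531% to 1.50%). Over all arm peaks the share was 1.10% (0.870% to 1.36%), and all these intervals overlapped.

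Successive members on an arm were separated by a median of 168316 bp, with a middle range of 63044 to 406914 bp, and 12 of the 411 steps were 5 kb or shorter. In 22 steps (5.35%) no other peak lay between, a share close to the 5.71% that members make up of all arm peaks. The closest pair was the 2L peak at 21540855 beside the run of wide peaks and the member at 21542747 to 21543690 (score 58.35), 893 bp apart with 1 weaker peak between them. Then came 2L 19810421 to 19811284 (117.93) and 19812430 to 19812863 (61.61), 1145 bp apart. The members at 2L 21403872 to 21404430 (56.2) and 21405580 to 21406094 (57.13) were 1149 bp apart. On 3L, members at 21058365 to 21059208 (52.22) and 21060460 to 21061260 (58.95) were 1251 bp apart, and those at 6174604 to 6175431 (95.96) and 6177538 to 6178292 (59.48) were 2106 bp apart.

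Only 2 runs of at least 3 members with gaps of 5 kb or less were found. One, at 2L 19810421 to 19820785, held 4 members among 5 peaks, with scores of 117.93, 61.61, 117.27 and 54.77. The remaining peak in it was a wide strong one of 1066 bp, just over the width limit, which scored 137.79, above all 4 members. The other run, at 3L 6174604 to 6182346, consisted of 3 members with scores of 95.96, 59.48 and 54.26 and no other peak. In a window of 100 kb the highest count was 5 members, at 3R 2585156 to 2680433. These had scores of 51.71, 74.95, 50.2, 80.19 and 52.22 and widths of 414 to 690 bp, and none of the 17 peaks in that stretch was a wide strong one. Of the stretches with 4 members, 3R 12545364 to 12624710 also held no wide strong peak among its 6 peaks, and its members scored 64.31, 68.73, 62.69 and 88.57. No wide strong peak lay among the 8 peaks of 2L 21540855 to 21619372 either, a stretch with 4 members beside the run of wide peaks. At 2R 5798152 to 5877214, 4 members and 3 wide strong peaks lay among 13 peaks. These runs and windows were picked after their values were seen.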

How the data were processed

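Chromatin immunoprecipitation with sequencing was run on 2 TBP and 2 input libraries. One peak list was analysed, on FlyBase release 5 per the file headers, whose lines name MACS as their source. BWA, MACS2, CASAVA (1.7.0.2, 1.7.0.3) and the build BDGP5 appear in the submitters' processing notes. Calling settings, pooling of replicates and read depth were not given in the sources used here. For every peak there is a score deposited by the authors without a scale, and a start and an end, from which width was computed. No peak was lifted between builds, and no sequence was read.

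Peaks scoring 50 or more were split at 1000 bp. A neighbour is another peak on the 6 arms whose nearest edge is at most 5000 bp away. The 5 segments of an arm run from its first to its last peak. Weighting gave wide strong peaks the members' distribution over score bins of 10. Shares have exact intervals, and the distance and weighting steps were tested on simulated data. Named members were the 10 highest-scoring, 10 narrowest and 10 most isolated, and the 5 closest pairs. Members, classes and rules were chosen with earlier results of these data known. Python 3.11.15, numpy 2.4.6, pandas 2.3.3, scipy 1.17.1 and matplotlib 3.10.9 were used.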

Additional observations from a re-analysis of the deposited data

Results flagged for a closer look

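Outside the chromosome arms, Uextra, a collection of sequence placed on no chromosome, held 237 peaks that met the same limits on score and width, listed here because they lie in sequence that the comparisons did not use. They were 96.7% of the 245 Uextra peaks scoring 50 or more, with a median score of 102.99 and a median width of 773 bp. Over all sequences off the arms, 242 of 250 peaks scoring 50 or more met the width limit. These peaks entered no comparison with the arms.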

How the results depend on the processing

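No paired analysis was possible because the list carries no values per library, which also prevents leaving out a replicate. Of 166 alternative values, 148 lay within the 95% interval of the value reported and 18 did not. The 148 include 15 values that equal the reported one, 13 of them without the run of wide peaks on 2L, which holds no sharp strong peak. Measured from centre to centre, the share with a neighbour within 5 kb was 54.4% of sharp strong and 65.2% of wide strong peaks, with median distances of 4589 bp for sharp strong and 3596 bp for wide strong peaks. With neighbours scoring 20 or more it was 48.4% of sharp strong and 59.5% of wide strong peaks, and median gaps were 5432 bp for sharp strong and 3682.5 bp for wide strong peaks. Within 2 kb the share with a neighbour was 35.7% of sharp strong and 48.4% of wide strong peaks, and within 10 kb it was 76.3% of sharp strong and 88.4% of wide strong peaks. A wide strong neighbour lay within 2 kb of 8.63% of sharp strong and 13.7% of wide strong peaks, and within 10 kb of 32.9% of sharp strong and 49.1% of wide strong peaks. Among wide strong peaks that share was 36.0% with a score limit of 40 and 26.1% with 60, where the limit sets both which peaks are counted and which neighbours qualify. In 81 of 97 comparisons sharp strong peaks kept their side of wide strong ones. This includes each alternative for gaps, neighbours and the share on X. The 16 that turned were shares on 2L, 3L, 3R and chromosome 4 and in segments 2, 3 and 5 of the arms. With a score limit of 60, 3R held 23.9% of sharp strong and 27.2% of wide strong peaks. At that limit 3L held 22.4% of sharp strong and 19.3% of wide strong peaks. The segment nearest the centromere turned only with a width limit of 1200 bp, at 20.72% of sharp strong and 20.75% of wide strong peaks. The segment nearest the telomere kept its order at that limit but with closer values, at 19.4% of sharp strong and 20.3% of wide strong peaks. Unknown depth limits statements on missing neighbours, since weak peaks may go uncalled.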

Other observations

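The deposited scores of the sharp strong peaks fell on repeated values. Only 184 distinct scores occurred among the 417 members, and 303 members shared their score with another member. The most frequent value, 53.74, occurred in 14 members, and 50.2, 50.7 and 51.71 occurred in 10 each. A limit placed at a slightly different score would therefore move groups of peaks together.

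Some long stretches of the arms held TBP peaks but no sharp strong one. Those given here were the widest of the 411 steps between successive members. Members were 5.71% of all arm peaks, so few would fall among 55 or 26 peaks. Whether the stretches lacked members beyond that was not tested. The longest, on 3R between the members ending at 22392924 and starting at 24156447, spanned 1763522 bp with 55 other peaks in it. On 2L, the members ending at 14288451 and starting at 16049634 were 1761182 bp apart with 55 peaks between them, and on 3L those ending at 22767346 and starting at 24457200 were 1689853 bp apart with 26.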
